A study of Arabidopsis thaliana with 12 samples.

Results

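Whole seedlings of an Arabidopsis thaliana line carrying the MUTEPPP allele of the stomatal regulator MUTE (line 3, MUTEPPP#3) were compared by mRNA sequencing with seedlings of a line carrying the wild-type allele (line 1, MUTE). The comparison used 6 of the 12 libraries of the study, 3 per line, chosen by the line named in the sample labels, and 22624 of the 23071 genes in the count table entered the test. MUTEPPP has the substitutions H3P, E7P and R11P in the basic helix-loop-helix region, with residues counted from the initiator methionine. In every line of the study the transgenic allele was driven by the MUTE promoter in the mute-3 mutant background, so both lines compared here carry a MUTE transgene over the same mutant. The other 6 libraries came from lines 2 and 5 of MUTEv5, an allele with the substitution R10W. Those libraries helped to estimate the spread between replicates and are quoted where MUTEPPP#3 is set against them. Each library was made from 50 pooled seedlings collected at 2 days after germination, and the labels describe the 3 libraries of a line as independent biological replicates. Plates held MS medium with 1% sucrose and stood at 21 °C under 16 h of light and 8 h of darkness, with light of 70 µmol m-2 s-1. Because each line stands for 1 transformation event, the allele and the insertion site of its transgene cannot be told apart in these data.

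MUTE is a basic helix-loop-helix transcription factor that acts in the stomatal lineage after SPCH and before FAMA. It ends the self-renewing divisions of meristemoids and starts the guard mother cell programme, and it works as a heterodimer with SCRM (ICE1) or SCRM2. The basic region contacts DNA and the helices hold the dimer together. The 3 substituted codons lie in the first 15 codons of the reference coding sequence, which is shown here from the start codon because it locates the change that defines the line. It was read from the RefSeq genome of build TAIR10.1 at chr3:1846531-1846575 on the plus strand, with the codons for residues 3, 7 and 11 in capitals.
MUTE: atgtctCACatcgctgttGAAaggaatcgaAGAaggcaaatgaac
The sources used here do not name the codons put in their place.

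The count total per library lay between 117868477 and 152600239, and the totals of the lines overlapped. The share of counts from ribosomal RNA and organelle genes was 1.01%, 1.28% and 0.397% in the MUTE libraries and 2.12%, 0.575% and 1.18% in the MUTEPPP#3 libraries, so the lines overlapped. Levels are given below as CPM, counts scaled to a common library total and not to gene length. A clock index, the mean log2 CPM of the evening genes TOC1, GI, LUX, ELF4 and PRR5 minus that of the morning genes CCA1 and LHY, was -5.83, -0.727 and -1.83 in MUTE and -0.203, 3.23 and 4.56 in MUTEPPP#3, with no overlap. The 6 MUTEv5 libraries lay between -5.26 and -0.240, below every MUTEPPP#3 library. The hour of harvest is not given in the labels, so a difference in the clock phase sampled and an effect of the line cannot be told apart. For this reason values from a fit with the index as a covariate (the clock-adjusted or covariate fit) are given beside most gene groups below, mainly as the number of calls that were kept with their sign. The index replaces part of the difference between the lines in that fit, and for the 7 genes it is built from the adjustment is circular.

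Transcripts of the MUTE gene itself (AT3G06120) were measured at 6.16, 4.99 and 4.79 CPM in the MUTE libraries and at 6.98, 5.46 and 5.34 CPM in the MUTEPPP#3 libraries. The ranges overlapped, and the log2 fold change was 0.16 (SE 0.219, adjusted p = 0.636 by edgeR's quasi-likelihood test with Benjamini-Hochberg adjustment). That test is the source of every adjusted p below unless limma-voom, an alternative test, is named. The MUTEv5 lines had more MUTE transcript, at 12.8, 10.7 and 8.19 CPM in line 2 and 24.6, 14.4 and 16.9 CPM in line 5, and MUTEPPP#3 lay below their mean by a log2 difference of -1.25 (adjusted p = 0.00507). Counts per gene do not separate the transgene from the mute-3 allele, so these values are the sum of both.

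At an adjusted p under 0.05, 5594 of the 22624 genes tested (24.7%) differed between the lines, 2568 (11.4%) higher and 3026 (13.4%) lower in MUTEPPP#3. In 9170 genes (40.5%), called or not, the 3 MUTEPPP#3 libraries all lay on one side of the 3 MUTE libraries. Most called differences were modest, with a median absolute log2 fold change of 0.62 among them. A change of 2-fold or more was seen in 1360 called genes, and it was a fall in 906 and a rise in 454. At 4-fold or more, 184 genes fell and 62 rose. Over all genes tested the median log2 fold change was 0.01, and 90% of genes lay between -1.05 and 0.81. When libraries were scaled by their totals alone the median moved by 0.158 on the log2 scale, and the split became 4787 higher and 1862 lower. Without MUTEPPP#3 replicate 2 the number called was 2947, and 117 of the 204 called genes named in the text stayed called. Without MUTE replicate 3 or MUTEPPP#3 replicate 3 the rises numbered 1548 and 1678. Adjusted for the clock index, the number called was 3805, of which 2378 were among the 5594. In that fit 99.7% of the 5594 genes had the same sign, and the median ratio to the value without the covariate was 0.915. Single genes and lists moved much further, with FKF1 going from a log2 value of 4.62 to 0.10, COR27 from 6.26 to 1.94, and the median of the evening clock list from 1.28 to -0.14. TOC1, GI, LUX, ELF4 and PRR5 of that list are part of the index, so the move of its median is partly circular.

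The 3 master regulators of the lineage did not pass the test in MUTEPPP#3. SPCH, which starts the lineage, was measured at 6.40, 4.38 and 5.46 CPM in MUTE and 7.25, 6.93 and 7.54 CPM in MUTEPPP#3, a log2 difference of 0.42 (SE 0.159, adjusted p = 0.0760), although every MUTEPPP#3 library was above every MUTE library. FAMA, which stops further division and promotes guard cell fate, was measured at 20.18, 23.0 and 18.7 CPM and 22.1, 22.8 and 24.0 CPM, with overlapping ranges and a log2 difference of 0.15 (adjusted p = 0.430). The partners of MUTE were lower. SCRM2 fell from 59.2, 70.3 and 67.5 CPM to 31.2, 33.3 and 48.8 CPM (log2 change -0.80 ± 0.190 SE, adjusted p = 0.0131). SCRM fell from 69.1, 61.6 and 65.6 CPM to 56.0, 56.5 and 54.0 CPM (log2 change -0.24 ± 0.0744 SE, adjusted p = 0.0401). The lines did not overlap for either partner. The call on SCRM was kept in 1 of the 12 fits that each left out 1 library, with log2 values from -0.26 to -0.18, and that on SCRM2 was lost only without MUTEPPP#3 replicate 2, where the value was -0.71 (adjusted p = 0.0569). In whole seedlings a smaller number of cells of a type and less RNA per cell cannot be told apart, which applies to every gene below.

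Of the 16 early stomatal lineage genes tested, 2 rose, 3 fell and 11 did not pass, with a median log2 fold change of -0.05. Over all genes tested 11.4% were called higher and 13.4% lower, the shares to set beside every list below. Besides SCRM and SCRM2, the receptor kinase gene ERL2 fell, from 24.2, 20.5 and 18.7 CPM to 14.9, 15.4 and 16.4 CPM (log2 fold change -0.44 with adjusted p = 0.0115). EPF2, the peptide that restrains entry into the lineage, rose from 1.62, 2.06 and 1.94 CPM to 3.18, 3.00 and 3.57 CPM (log2 fold change 0.79 with adjusted p = 0.0382). The D-type cyclin gene CYCD3;3 rose from 17.0, 19.5 and 17.0 CPM to 25.9, 26.5 and 28.0 CPM (log2 fold change 0.58 with adjusted p = 0.00213). Libraries of the lines did not overlap for these 3 genes. The call on EPF2 was kept in 5 of 12 leave-one-out fits, with log2 values from 0.71 to 0.88, while those on ERL2 and CYCD3;3 were kept in all 12. The clock-adjusted fit kept 2 of the 5 calls, those on SCRM2 and CYCD3;3, and the list median was 0.13.

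Of the 18 guard mother cell genes tested, 2 rose, 2 fell and 14 did not pass, with a median of 0.12. The share called was 22.2%, below the 24.7% of all genes tested. The R2R3-MYB gene FLP, which stops further division of guard cells, fell from 20.17, 15.0 and 15.1 CPM to 8.44, 9.87 and 13.0 CPM (log2 fold change -0.68 with adjusted p = 0.0158). ERL1, a receptor kinase that MUTE is known to activate, fell from 9.09, 7.20 and 7.52 CPM to 5.61, 5.60 and 5.58 CPM (log2 fold change -0.50 with adjusted p = 0.0271). The cell cycle genes CYCA2;1 and CDKB1;2 rose with log2 fold changes of 0.62 (adjusted p = 0.0284) and 0.36 (adjusted p = 0.0496). The lines were separate in all 4 genes. Without MUTEPPP#3 replicate 2 the log2 values were -0.64 (adjusted p = 0.0606) for FLP, -0.50 (adjusted p = 0.0764) for ERL1, 0.53 (adjusted p = 0.103) for CYCA2;1 and 0.41 (adjusted p = 0.0761) for CDKB1;2. The call on FLP was also lost without MUTE replicate 1, and the other 3 calls were kept in 7 (ERL1), 8 (CYCA2;1) and 3 (CDKB1;2) of 12 leave-one-out fits. FLP was the call of the 4 that the clock-adjusted fit kept.

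Of the 19 mature guard cell genes tested, 2 rose, 5 fell and 12 did not pass, and the median was -0.28. SLAC1, the guard cell anion channel, rose from 2.67, 2.99 and 2.40 CPM to 3.98, 3.84 and 3.69 CPM (log2 fold change 0.51 with adjusted p = 0.0266). PME6, a pectin methylesterase needed for stomatal movement, rose from 1.61, 3.00 and 2.51 CPM to 4.75, 5.41 and 4.45 CPM (log2 fold change 1.04 with adjusted p = 0.0140). No MUTEPPP#3 library overlapped a MUTE library for these 2 genes. The genes that fell were the anion channel genes ALMT12 (-0.63 with adjusted p = 0.0207) and SLAH3 (-0.60 with adjusted p = 0.0364), the kinase gene OST1 (-0.56 with adjusted p = 0.0105), PATROL1 (-0.51 with adjusted p = 0.00257), which acts in proton pump traffic, and the guard cell marker GC1 (-0.43 with adjusted p = 0.0469), with log2 fold changes in brackets. Without MUTEPPP#3 replicate 2, 3 of the 19 were called lower, and SLAC1 and PME6 had log2 values of 0.51 (adjusted p = 0.0733) and 0.95 (adjusted p = 0.0533). In the clock-adjusted fit PATROL1 alone of the 7 stayed under 0.05, the list median was -0.04, and the values of SLAC1 and PME6 were 0.55 (adjusted p = 0.0983) and 0.67 (adjusted p = 0.159).

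MUTEPPP#3 also differed from the MUTEv5 lines in stomatal genes, tested directly against the mean of both MUTEv5 lines. In the mature guard cell list 11 of 19 genes were higher in MUTEPPP#3 than in the MUTEv5 mean and 1 was lower at an adjusted p under 0.05. In the early list 2 of 16 were higher and 10 were lower, and in the guard mother cell list 2 of 18 were higher and 5 lower. Across all 22624 genes tested this contrast called 3216, and 906 in the clock-adjusted fit. The 3216 of 22624 are to be set beside every count against the MUTEv5 mean below. FAMA differed by 1.26 (adjusted p = 6.97e-04), with log2 changes from MUTE of -0.75 in MUTEv5#2 and -1.47 in MUTEv5#5. GC1 differed by 1.72 (adjusted p = 3.56e-04), with changes of -2.12 and -2.17 in the MUTEv5 lines. SPCH differed by -1.04 (adjusted p = 0.00301), with changes of 1.28 and 1.64. Of the 12 mature guard cell genes that differed, 7 were not called in MUTEPPP#3 against MUTE, and 5 of those 7 were called in both MUTEv5 lines. For SCRM, ERL1, SLAC1 and PME6 the change from MUTE had opposite signs in MUTEPPP#3 and in both MUTEv5 lines.

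**Figure D1:**
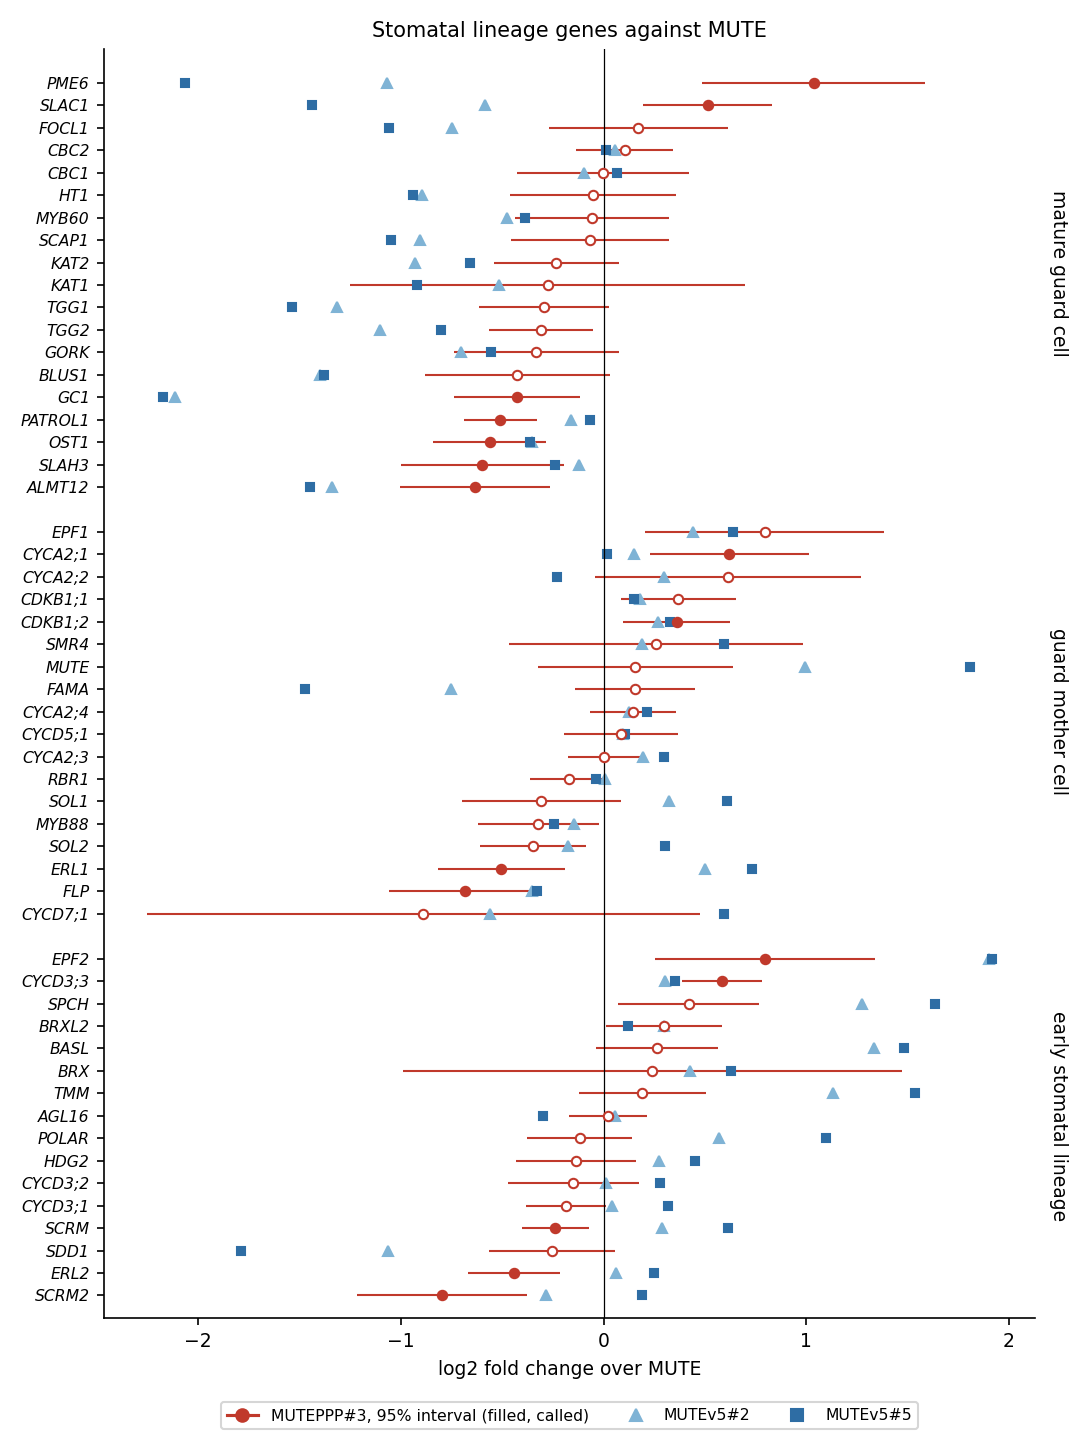
Log2 fold change over MUTE (horizontal axis) of each gene tested in the 3 stomatal lists (vertical axis); red circles are MUTEPPP#3 with its 95% interval, filled where adjusted p is under 0.05, and triangles and squares are MUTEv5#2 and MUTEv5#5. FAMA stood at 0.15 in MUTEPPP#3 and at -0.75 and -1.47 in the MUTEv5 lines, and EPF2 at 0.79 against 1.90 and 1.92.

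Of 21 genes for stomatal signalling, from secreted peptides to receptors and the kinase cascade, 1 rose, 5 fell and 15 did not pass (median -0.12). EPFL9 (STOMAGEN), the mesophyll peptide that promotes stomatal formation, fell from 15.1, 11.2 and 9.98 CPM to 3.78, 4.84 and 6.87 CPM (log2 change -1.23 ± 0.216 SE, adjusted p = 0.00369). The co-receptor gene SERK2 fell from 29.6, 28.4 and 28.5 CPM to 20.9, 17.59 and 23.0 CPM (-0.49 with adjusted p = 0.00558 on the log2 scale), and BIN2, a kinase gene of brassinosteroid signalling, from 249, 193 and 198 CPM to 145, 146 and 172 CPM (-0.47 with adjusted p = 0.0140). The lines did not overlap for the 3 genes, and the receptor genes ERL1 and ERL2 and the peptide gene EPF2 described above complete the called members. EPFL9 did not differ from the MUTEv5 mean at this threshold (-0.39 with adjusted p = 0.189), with -1.2 in MUTEv5#2 and -0.48 in MUTEv5#5. Of the 6 calls in the list, 2 were kept in the clock-adjusted fit (EPFL9 and SERK2), and the call on BIN2 was lost without MUTEPPP#3 replicate 2.

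Genes of copper uptake included the deepest falls in MUTEPPP#3. Plants short of copper switch on transporters and reductases through the transcription factor SPL7 and replace copper enzymes with others, and with enough copper that programme is off. Of 14 genes of copper uptake and SPL7 targets tested, 9 fell, 1 rose and 4 did not pass, with a median log2 fold change of -0.68. In 12 of the 14 the lines did not overlap, against 40.5% of all genes tested. The clock-adjusted fit kept 7 of the 10 calls, losing COPT6, CCH and FSD3, and without MUTEPPP#3 replicate 2, 6 were kept.

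COPT2 (AT3G46900), a high-affinity copper transporter of the plasma membrane, was counted 975, 446 and 841 times in the MUTE libraries and 23, 7 and 11 times in the MUTEPPP#3 libraries, which is 6.87, 3.20 and 7.61 CPM against 0.147, 0.0508 and 0.0710 CPM. Its log2 value, -6.01 (SE 0.616, adjusted p = 4.86e-04), was the deepest among called genes with a mean of 1 CPM or more over the 6 libraries and no overlap, and the covariate fit gave -5.17 (adjusted p = 0.00253). FRO4 (AT5G23980), a metal reductase that prepares copper for uptake, fell from 11.8, 4.47 and 12.7 CPM to 0.237, 0.189 and 0.142 CPM (log2 change -5.66 ± 0.726 SE, adjusted p = 9.78e-04). The highest MUTEPPP#3 library was far below the lowest MUTE library for both. Their log2 changes from MUTE in MUTEv5#2 and MUTEv5#5 were -0.26 and -0.91 for COPT2 and -0.17 and -0.74 for FRO4, with adjusted p values of 0.371 or more. MUTEPPP#3 differed from the MUTEv5 mean by -5.42 (adjusted p = 0.00143) and -5.21 (adjusted p = 0.00262). Both calls were kept in all 12 leave-one-out fits.

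The other transport genes of the list moved less. ZIP2, a transporter gene of the ZIP family, fell from 39.0, 48.3 and 53.1 CPM to 19.3, 13.0 and 12.6 CPM (log2 change -1.64 ± 0.176 SE, adjusted p = 5.51e-04). YSL2, a carrier of metal-nicotianamine complexes, fell from 34.8, 19.1 and 21.1 CPM to 10.7, 6.94 and 6.86 CPM (log2 change -1.62 ± 0.252 SE, adjusted p = 0.00226). Libraries did not overlap in either gene. COPT1, a copper importer of roots, had a log2 fold change of -0.76 (adjusted p = 0.0195), COPT6 of -0.53 (adjusted p = 0.0240) and YSL3 of -0.61 (adjusted p = 0.0323). The copper chaperone gene CCH fell from 206, 154 and 171 CPM to 129, 84.4 and 86.0 CPM (-0.82 with adjusted p = 0.00950). MUTEPPP#3 differed from the MUTEv5 mean in 9 of the 10 called members. COPT6 was the exception, at -0.13 (adjusted p = 0.515).

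The genes whose log2 CPM over the 12 libraries was most like that of COPT2 were FRO4 (Pearson r 0.989), ZIP2 (0.966), CPK13 (0.956), YSL2 (0.952) and FSD1 (0.946). These coefficients describe 12 libraries of 4 lines and carry no test.

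Because the factor SPL7 is known to bind GTAC, the 250 bases before the gene records of COPT2, FSD1 and YSL2 are shown as the contrast between the gene that fell most and 2 others of the list. They were read from the RefSeq genome of build TAIR10.1, 5′ to 3′ on the gene's own strand, at chr3:17268450-17268699 (plus), chr4:12887012-12887261 (minus) and chr5:8323645-8323894 (plus), with GTAC in capitals.
COPT2: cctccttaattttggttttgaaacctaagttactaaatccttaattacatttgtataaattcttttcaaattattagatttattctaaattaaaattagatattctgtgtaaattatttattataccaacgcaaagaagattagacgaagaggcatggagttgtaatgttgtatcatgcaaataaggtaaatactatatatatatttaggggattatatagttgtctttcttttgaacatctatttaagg
FSD1: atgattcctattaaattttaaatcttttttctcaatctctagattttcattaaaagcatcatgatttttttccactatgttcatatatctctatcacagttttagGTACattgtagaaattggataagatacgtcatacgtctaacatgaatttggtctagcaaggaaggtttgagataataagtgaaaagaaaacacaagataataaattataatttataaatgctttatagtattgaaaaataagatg
YSL2: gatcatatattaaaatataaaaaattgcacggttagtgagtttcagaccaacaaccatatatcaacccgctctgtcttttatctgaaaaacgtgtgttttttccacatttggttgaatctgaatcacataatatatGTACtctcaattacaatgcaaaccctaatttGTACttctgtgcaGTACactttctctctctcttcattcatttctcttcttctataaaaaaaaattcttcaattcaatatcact
GTAC, which reads the same on both strands, was found 3 times before YSL2, 1 time before FSD1 and not in the window of COPT2. It was found in 5 of the 14 windows of the list and in 34.7% of the 22496 windows of genes tested. A match is a description of the letters and not a binding site, and a window without one says nothing of SPL7.

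Superoxide dismutase genes changed in both directions. FSD1, the iron enzyme of chloroplasts, fell from 640.0, 589 and 596 CPM to 342, 285 and 222 CPM (log2 change -1.10 ± 0.190 SE, adjusted p = 0.00337). CSD2, the copper-zinc enzyme of chloroplasts, rose from 91.8, 118 and 122 CPM to 441, 461 and 459 CPM (log2 change 2.04 ± 0.189 SE, adjusted p = 3.77e-04). CSD1, the copper-zinc enzyme of the cytosol, rose from 81.1, 119 and 115 CPM to 246, 223 and 231 CPM (log2 change 1.15 ± 0.179 SE, adjusted p = 0.00226). CCS, the chaperone that loads copper into both, rose from 38.2, 43.4 and 45.1 CPM to 97.1, 102 and 109 CPM (log2 change 1.28 ± 0.121 SE, adjusted p = 4.14e-04). No library of one line overlapped the other line in any of the 4 genes, and all 4 calls were kept in all 12 leave-one-out fits and in the clock-adjusted fit. MUTEPPP#3 also differed from the MUTEv5 mean, by -1.17 (adjusted p = 0.00366) for FSD1, 1.74 (adjusted p = 6.39e-04) for CSD2, 0.97 (adjusted p = 0.00432) for CSD1 and 1.15 (adjusted p = 6.39e-04) for CCS. FSD3, a second iron enzyme of chloroplasts and the member of the uptake list that rose, went from 19.8, 16.8 and 14.7 CPM to 21.4, 31.5 and 37.7 CPM (0.82 with adjusted p = 0.0209).

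**Figure D2:**
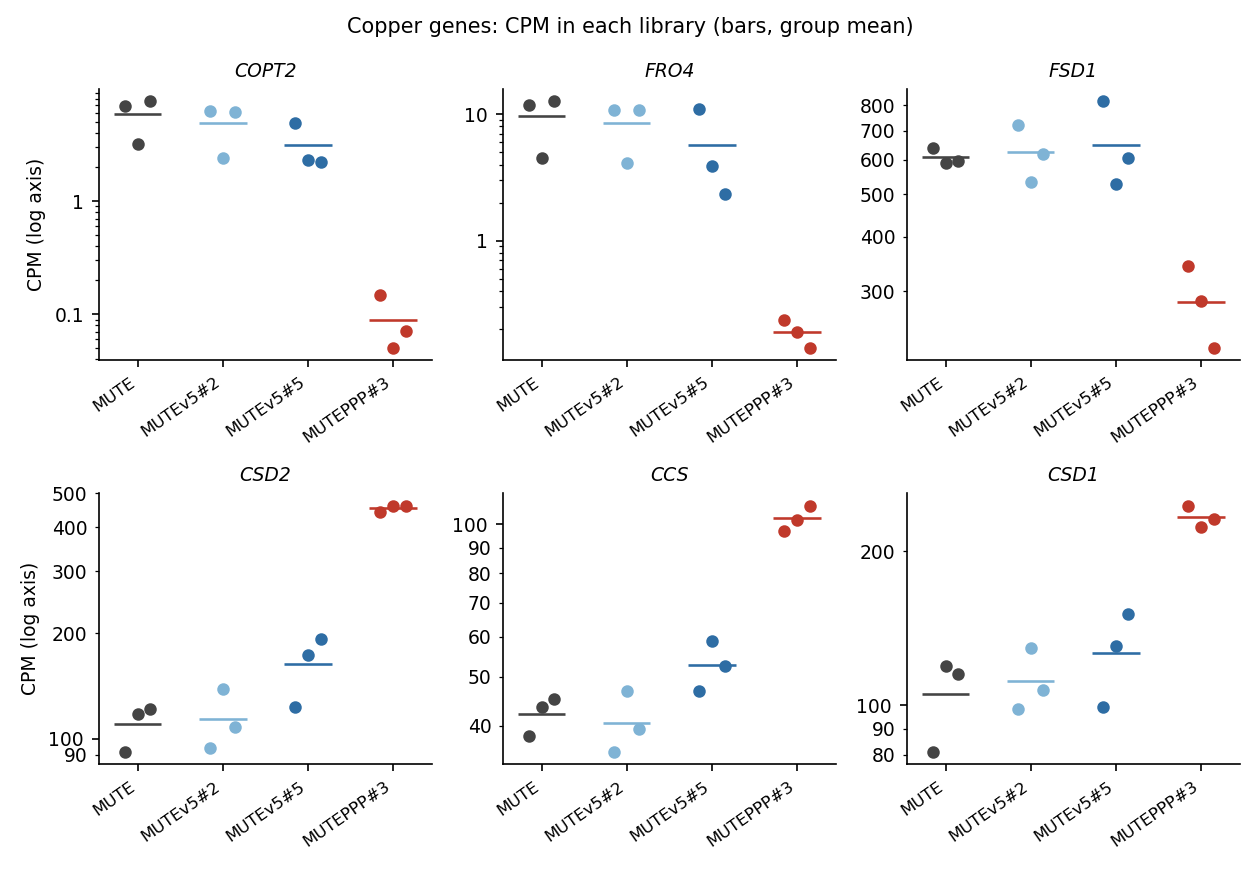
CPM on a log axis (vertical) of 6 copper genes in each of the 12 libraries, grouped by line (horizontal); each point is a library and each bar the mean of a line. All 3 MUTEPPP#3 points lie below all other points for COPT2, FRO4 and FSD1 and above all of them for CSD2, CCS and CSD1, where CSD2 reached 441 to 461 CPM against 91.8 to 122 CPM in MUTE.

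CSD1, CSD2 and CCS are the known targets of the copper-responsive microRNA miR398, which accumulates when copper is short. Its b-3p form is shown because these 3 targets rose together, with the seed (bases 2 to 8) in capitals, followed by the best ungapped match in the coding sequences of CSD2 and CCS, with paired bases in capitals. All were read from the RefSeq genome of build TAIR10.1, at chr5:4691107-4691127 on the plus strand, chr2:12015572-12015592 on the plus strand and chr1:4267521-4267541 on the minus strand.
ath-miR398b-3p: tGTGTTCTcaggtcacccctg
CSD2: tgcGGGTGACCTGgGAAacat
CCS: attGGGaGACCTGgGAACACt
Both matches lie in the coding sequence. The match in CSD2 has 5 mismatched positions besides 3 G-U pairs, counted as unpaired in the capitals, and that in CCS has 5 mismatches and 1 G-U pair. The precursor gene MIR398b, looked up after the target values were seen, had 49, 10 and 10 counts in MUTE and 5, 3 and 3 counts in MUTEPPP#3. Every MUTEPPP#3 count was below every MUTE count, and the log2 value was -2.76 (SE 0.907, adjusted p = 0.0470). That call rests on few counts, was kept in 4 of 12 leave-one-out fits (log2 -3.12 to -1.67, the latter without MUTE replicate 1), and shares sequence with a near copy, AT5G14565 (96.6% identity over 116 bases). Libraries of poly(A) RNA do not measure the mature microRNA.

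Among 21 genes for copper proteins and copper delivery, 6 rose, 6 fell and 9 did not pass, with a median of -0.24. Besides CSD1, CSD2 and CCS, the rises were those of ARPN (plantacyanin, 0.82 with adjusted p = 0.0112) and of COX17 and HCC1, which serve the copper centres of mitochondrial cytochrome c oxidase (0.56 with adjusted p = 0.0130 and 0.50 with adjusted p = 0.0194, log2 fold changes). The falls included PAA2, the copper pump of thylakoids, from 149, 137 and 140.1 CPM to 70.9, 72.1 and 83.7 CPM (log2 change -0.91 ± 0.125 SE, adjusted p = 0.00132). The plastocyanin genes PETE1 and PETE2, whose products carry electrons in photosynthesis, fell by log2 values of -0.56 (adjusted p = 0.00733) and -0.47 (adjusted p = 0.0165). RAN1, a copper pump of the endomembranes, and the laccase genes LAC2 and LAC17 had log2 fold changes of -0.38 (adjusted p = 0.0209), -0.67 (adjusted p = 0.0344) and -0.49 (adjusted p = 0.0115). In the clock-adjusted fit 6 of the 12 calls were kept, and the median was 0.02.

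Iron acquisition genes were lower too. Of 18 genes of the iron deficiency response tested, 8 fell and 10 did not pass (median -0.37). IRT1, the root iron importer, fell from 27.5, 10.9 and 23.7 CPM to 1.93, 0.457 and 0.710 CPM (log2 change -4.32 ± 1.12 SE, adjusted p = 0.0191). FRO2, the root ferric reductase, fell from 12.2, 3.34 and 7.47 CPM to 2.04, 1.13 and 0.704 CPM (log2 change -2.57 ± 0.498 SE, adjusted p = 0.00550). The lines were separate in both genes, and the 3 MUTE libraries differed among themselves by more than 2-fold. The regulators of this response fell with them, with log2 fold changes of -2.76 (adjusted p = 0.00920) for BHLH38, -1.3 (adjusted p = 0.0214) for BHLH39, -2.44 (adjusted p = 0.00464) for BHLH101 and -2.15 (adjusted p = 0.0181) for the peptide gene IMA3. The transporter gene OPT3 and the ubiquitin ligase gene BTS, a brake on the response, were at -0.50 (adjusted p = 0.0106) and -0.63 (adjusted p = 0.00869). Against the MUTEv5 mean, the adjusted p values of the 8 ran from 0.157 for IMA3 to 0.978 for FRO2. In the MUTEv5 lines themselves FRO2 stood at log2 changes from MUTE of -2.43 (adjusted p = 0.0270) and -2.67 (adjusted p = 0.0398). The clock-adjusted fit kept 2 of the 8 calls, those on BHLH101 and OPT3. Of 11 genes of iron storage and sufficiency 1 rose (VTL1, 0.77 with adjusted p = 0.0307), 1 fell (NAS1, nicotianamine synthase, -0.76 with adjusted p = 0.0391) and 9 did not pass, and both calls were lost in the clock-adjusted fit and without MUTEPPP#3 replicate 2.

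Of 13 sulfur deficiency markers tested, 7 fell and 6 did not pass, with a median log2 fold change of -1.46. In 10 of the 13 the lines did not overlap, beside 40.5% of all genes tested. LSU2, a small protein gene induced by lack of sulfate, fell from 3.56, 5.65 and 5.54 CPM to 0.897, 1.49 and 1.47 CPM (log2 change -1.93 ± 0.228 SE, adjusted p = 7.26e-04), and LSU1 from 1.45, 2.16 and 1.85 CPM to 0.352, 0.457 and 0.497 CPM (log2 change -2.06 ± 0.414 SE, adjusted p = 0.00642). SDI1 and SDI2, repressors of glucosinolate synthesis under low sulfate, had log2 fold changes of -2.72 (adjusted p = 0.0109) and -2.03 (adjusted p = 0.0270). The reductase genes of sulfate assimilation APR1 and APR2 went from 89.97, 113 and 103 CPM to 17.3, 40.5 and 53.5 CPM (-1.46 with adjusted p = 0.0160) and from 182, 214 and 207 CPM to 40.7, 86.3 and 108 CPM (-1.36 with adjusted p = 0.0108), and SHM7 from 129, 109 and 110.3 CPM to 19.9, 31.7 and 46.5 CPM (-1.83 with adjusted p = 0.00739). In all 7 genes each MUTEPPP#3 library was below each MUTE library. The falls of LSU2 and APR2 differed from the MUTEv5 mean (-1.27 with adjusted p = 0.00507 and -1.16 with adjusted p = 0.0218). After adjustment for the clock index 4 of the 7 calls were kept, while those on SDI1, APR1 and SHM7 were lost.

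Circadian clock genes were lower or higher by their time of day. In Arabidopsis the morning factors CCA1 and LHY and their REVEILLE relatives alternate through the day with evening genes such as TOC1. Of 15 morning genes tested, 10 fell and 5 did not pass (median -1.99). Of 12 evening genes, 5 rose, 1 fell and 6 did not pass (median 1.28). CCA1 was measured at 300.4, 69.7 and 96.7 CPM in MUTE and 26.8, 8.37 and 5.02 CPM in MUTEPPP#3 (-3.54, SE 0.725, adjusted p = 0.00699). TOC1 was measured at 20.9, 37.6 and 39.3 CPM and 33.8, 86.6 and 156 CPM (log2 change 1.50 ± 0.486 SE, adjusted p = 0.0447). CCA1 had no overlap, whereas for TOC1 MUTEPPP#3 replicate 1 lay within the range of MUTE. MUTE replicate 1 had the most CCA1 and the least TOC1 of its line, and MUTEPPP#3 replicate 3 the least CCA1 and the most TOC1 of all 6 libraries.

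RVE1, a morning factor that links the clock to auxin, fell from 52.2, 36.7 and 27.9 CPM to 5.05, 2.74 and 3.45 CPM (log2 change -3.38 ± 0.429 SE, adjusted p = 9.48e-04), and the coactivator gene LNK1 from 109.7, 89.0 and 87.3 CPM to 34.0, 25.4 and 19.3 CPM (log2 change -1.86 ± 0.188 SE, adjusted p = 4.80e-04). Neither overlapped, and their clock-adjusted log2 values were -3.48 (adjusted p = 0.00480) and -1.63 (adjusted p = 0.00328). The other called morning genes had log2 fold changes from -3.23 for RVE3 and -3.12 for RVE8 to -0.64 for RVE5, with LNK3 at -2.44, RVE7 at -2.27, LNK2 at -1.99 and RVE4 at -1.39. RVE7 has a near copy, AT3G10113 (99.8% identity over 615 bases), and how reads shared by copies were counted is not given. In the covariate fit 8 of the 10 morning calls were kept, CCA1 among them by circular adjustment, those on LNK2 and LNK3 were lost, and the list median went from -1.99 to -1.01. The value of LNK3 was -4.03 without MUTEPPP#3 replicate 1, and its call was kept in 4 of 12 leave-one-out fits.

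Among the evening genes PRR3 rose from 0.409, 1.61 and 1.02 CPM to 1.38, 11.3 and 18.0 CPM (log2 change 3.33 ± 0.800 SE, adjusted p = 0.0136), and FKF1, a blue light receptor of the photoperiod pathway, from 0.197, 3.84 and 2.28 CPM to 6.56, 54.3 and 94.2 CPM (log2 change 4.62 ± 1.39 SE, adjusted p = 0.0344). LUX and ELF4, which belong to the evening complex, had log2 fold changes of 1.68 (adjusted p = 0.00687) and 2.53 (adjusted p = 0.0220). In these genes MUTEPPP#3 replicate 3 was the highest library, replicate 2 the next and replicate 1 the nearest to MUTE. The call on FKF1 was kept in 7 of 12 leave-one-out fits (log2 3.85 to 5.42), that on TOC1 in 3 (log2 0.89 to 1.91) and that on ELF4 in 9 (log2 1.46 to 3.00). The lowest values of TOC1 and ELF4 were those without MUTEPPP#3 replicate 3, and both calls were also lost without MUTE replicate 1 or 3. FKF1 overlaps AT1G68060 on the opposite strand. In the covariate fit the adjusted p values of the 5 risers ran from 0.199 for LUX to 0.882 for TOC1, and the log2 values of TOC1, PRR3 and FKF1 were -0.10, 0.57 and 0.10. For TOC1, LUX and ELF4, which are part of the index, that adjustment is circular. ZTL, a light receptor that targets TOC1 protein for breakdown, was the evening gene that fell, from 44.9, 44.3 and 41.7 CPM to 30.3, 30.7 and 30.5 CPM (log2 change -0.52 ± 0.0794 SE, adjusted p = 0.00211, and -0.59 with adjusted p = 0.00647 with the covariate).

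**Figure D3:**
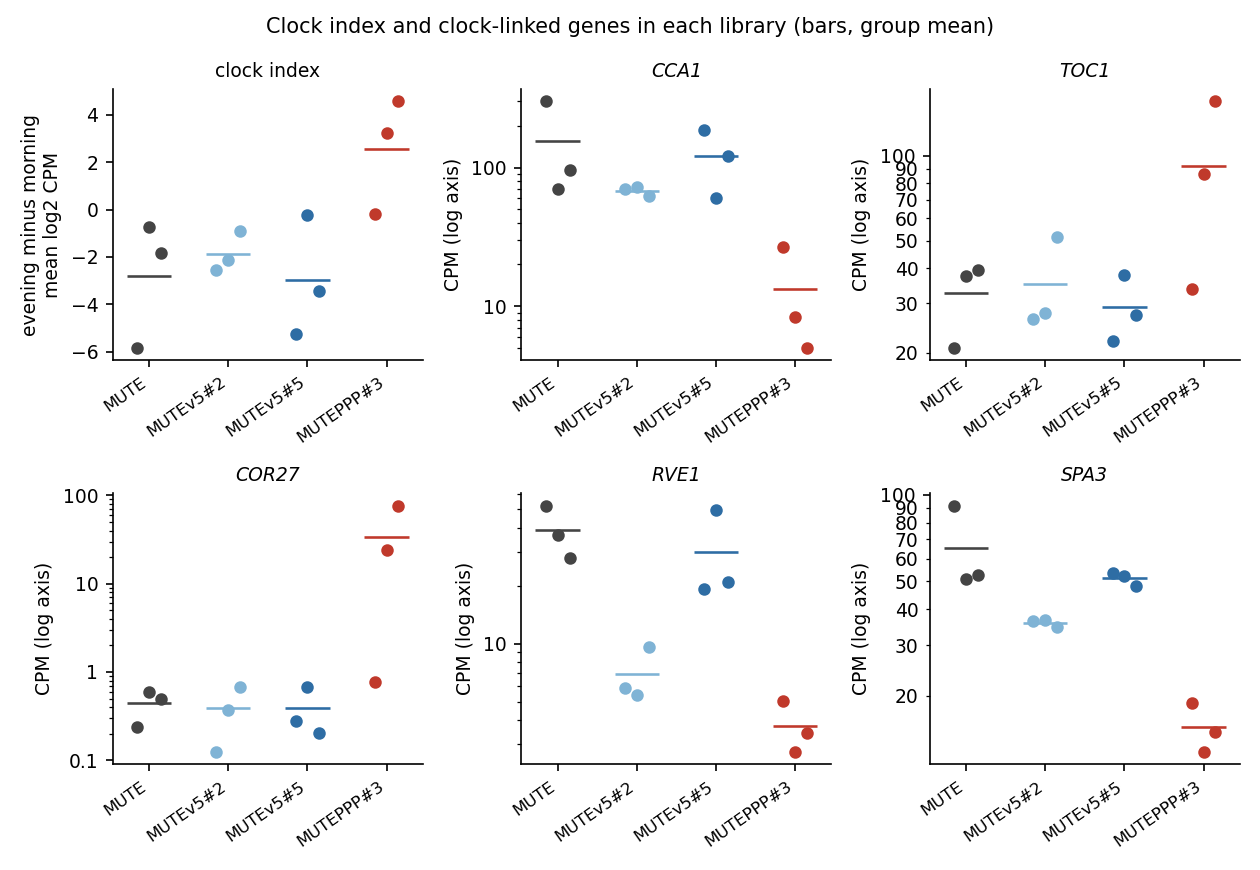
The clock index (evening minus morning mean log2 CPM) and the CPM, on a log axis, of CCA1, TOC1, COR27, RVE1 and SPA3 in each of the 12 libraries by line; points are libraries and bars are line means. MUTEPPP#3 lies above all other libraries in the index (-0.203 to 4.56) and below them in CCA1 (5.02 to 26.8 CPM), RVE1 and SPA3, while TOC1 and COR27 spread widely among its 3 libraries.

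Light signalling genes were mostly lower. Of 22 tested, 13 fell, 1 rose and 8 did not pass (median -0.85), and the covariate fit kept 12 of the 14 calls. The lines did not overlap in 15 of the 22, beside 40.5% of all genes tested. The bHLH factors that act with phytochromes were among them: PIF5 fell from 197, 166 and 155 CPM to 71.3, 69.3 and 42.9 CPM (log2 change -1.50 ± 0.191 SE, adjusted p = 9.55e-04), PIF1 from 43.6, 43.4 and 38.7 CPM to 18.0, 15.3 and 21.6 CPM (log2 change -1.19 ± 0.125 SE, adjusted p = 4.98e-04) and PIF7 from 25.6, 27.5 and 28.8 CPM to 9.04, 7.01 and 7.37 CPM (log2 change -1.81 ± 0.311 SE, adjusted p = 0.00339). PIF4 was at -0.96 (adjusted p = 0.00426). No MUTEPPP#3 library reached the MUTE range in the 4 genes.

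COP1 and the SPA proteins form a complex that breaks down light-signalling factors in the dark, and 4 of their genes fell. SPA3 went from 91.7, 51.1 and 52.8 CPM to 18.9, 12.8 and 15.0 CPM (log2 change -2.07 ± 0.216 SE, adjusted p = 4.98e-04), SPA1 from 128, 156 and 147 CPM to 80.2, 64.1 and 59.8 CPM (log2 change -1.08 ± 0.147 SE, adjusted p = 0.00122), SPA4 from 28.7, 28.1 and 24.2 CPM to 13.9, 13.2 and 12.3 CPM (log2 change -1.04 ± 0.114 SE, adjusted p = 5.51e-04) and COP1 from 51.4, 43.5 and 44.1 CPM to 29.1, 28.3 and 27.1 CPM (log2 change -0.72 ± 0.0861 SE, adjusted p = 7.88e-04). All 4 were separate between the lines, were kept in all 12 leave-one-out fits and with the covariate, and were lower than in the MUTEv5 mean (-1.46 with adjusted p = 0.00262 for SPA3 and -0.99 with adjusted p = 0.00262 for SPA1). Of the photoreceptor genes, the cryptochrome gene CRY1 fell from 222, 233 and 231 CPM to 107, 98.8 and 121 CPM (log2 change -1.07 ± 0.124 SE, adjusted p = 7.10e-04). The phytochrome genes PHYE and PHYC had log2 fold changes of -0.66 (adjusted p = 0.00169) and -0.31 (adjusted p = 0.0318), and PHYD rose (0.49 with adjusted p = 0.0348). PHYC was at -0.20 without MUTEPPP#3 replicate 1, where its call was lost, and PHYD and HY5 lost theirs in the covariate fit. HY5 and HYH, factors that promote light responses, were at -0.74 (adjusted p = 0.0169) and -1.91 (adjusted p = 0.00723).

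Of 11 photoperiod factors 4 fell, 1 rose and 6 did not pass (median -0.89). COL2, a CONSTANS-like gene, fell from 187, 30.6 and 33.9 CPM to 7.49, 1.75 and 2.08 CPM (log2 change -4.47 ± 0.825 SE, adjusted p = 0.00450), and CDF2, a repressor in the photoperiod pathway, from 28.6, 11.3 and 12.8 CPM to 6.31, 2.21 and 2.36 CPM (log2 change -2.28 ± 0.446 SE, adjusted p = 0.00585). Both were without overlap, and both were highest in MUTE replicate 1, the library with the lowest clock index. COL4 and COL5 were at -0.69 (adjusted p = 0.00474) and -0.64 (adjusted p = 0.00937). COL9 rose from 4.86, 6.85 and 4.78 CPM to 6.94, 30.9 and 91.1 CPM (log2 change 2.97 ± 0.683 SE, adjusted p = 0.0113), and its value was 1.23 (adjusted p = 0.400) in the covariate fit and 1.78 without MUTEPPP#3 replicate 3. The covariate fit kept 3 of the 5 calls, losing COL4 and COL9, and the list median went to -0.22. COL2 overlaps AT3G02370 and AT3G02390 on the opposite strand, whose reads the unknown strand setting of the counting may not separate.

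Cold-response genes included COR27, the largest rise among called genes with a mean of 1 CPM or more and no overlap, and they spread widely among the MUTEPPP#3 libraries. Of 16 tested, 6 rose and 10 did not pass (median 1.49), 3 rose without MUTEPPP#3 replicate 2, and in the covariate fit the adjusted p values of the 6 ran from 0.0591 for GOLS3 to 0.633 for COR28. COR27 and COR28, which act in the clock and in light signalling, went from 0.240, 0.595 and 0.488 CPM to 0.762, 24.0 and 76.7 CPM (log2 change 6.26 ± 1.32 SE, adjusted p = 0.00780) and from 0.324, 1.37 and 1.44 CPM to 1.68, 16.4 and 51.2 CPM (log2 change 4.47 ± 1.07 SE, adjusted p = 0.0134). They were highest in MUTEPPP#3 replicate 3. By limma-voom neither was called, with log2 values of 4.75 (adjusted p = 0.192) for COR27 and 3.72 (adjusted p = 0.108) for COR28. COR78 (RD29A) and COR15A, classical targets of the CBF cold factors, went from 44.9, 50.0 and 114 CPM to 519.5, 1858 and 145 CPM (log2 change 3.60 ± 0.866 SE, adjusted p = 0.0139) and from 0.486, 1.49 and 1.70 CPM to 7.30, 54.2 and 1.36 CPM (log2 change 4.1 ± 1.18 SE, adjusted p = 0.0285). They were highest in MUTEPPP#3 replicate 2, and for COR15A replicate 3 lay within the MUTE range. GOLS3, an enzyme of raffinose synthesis, and KIN2 had log2 fold changes of 4.33 (adjusted p = 0.0123) and 1.61 (adjusted p = 0.0282) and the same order of libraries. GOLS3 was measured at 1.303, 1.57 and 1.52 CPM in MUTE and 22.5, 65.0 and 1.06 CPM in MUTEPPP#3, so replicate 3 lay below every MUTE library. Without MUTEPPP#3 replicate 2 the values were 2.26 (adjusted p = 0.0559) for COR78, 1.82 (adjusted p = 0.176) for COR15A and 0.72 (adjusted p = 0.103) for KIN2.

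The window before COR78 is shown because the gene is a classical target of the CBF cold factors. It covers the 250 bases before the gene record (RefSeq, TAIR10.1) at chr5:21240467-21240716 on the plus strand. Capitals mark the core CCGAC on either strand, known as the site of CBF factors.
COR78: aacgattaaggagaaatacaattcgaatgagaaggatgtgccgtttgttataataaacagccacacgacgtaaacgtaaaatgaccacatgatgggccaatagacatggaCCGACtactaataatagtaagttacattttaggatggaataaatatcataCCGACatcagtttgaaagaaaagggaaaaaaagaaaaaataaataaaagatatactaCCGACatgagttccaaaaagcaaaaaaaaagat
The window held 3 copies of CCGAC. Windows of all genes tested were also searched for the evening element AAAATATCT (AGATATTTT on the other strand), known from evening-phased genes. Over all 22496 windows the evening element was found in 2.36% and CCGAC in 12.6%. The evening element was in 5 of 12 windows of the evening clock list, in 3.70% of the genes called higher and in 1.22% of those called lower. CCGAC was in 5 of 16 windows of the cold list. These are matches of letters only.

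Genes of DNA replication were higher. Of 18 tested, 11 rose and 7 did not pass (median 0.43), and 12 of the 18 were without overlap, against 40.5% of all genes tested. ORC6, a subunit of the origin recognition complex, rose from 3.68, 3.63 and 3.60 CPM to 5.87, 6.91 and 8.63 CPM (log2 change 0.97 ± 0.155 SE, adjusted p = 0.00250), and PCNA1, the sliding clamp of the polymerases, from 13.2, 15.1 and 14.3 CPM to 21.7, 24.7 and 23.5 CPM (log2 change 0.71 ± 0.127 SE, adjusted p = 0.00385). The lines were separate for both. The other rises ran from 0.39 for the helicase subunit gene MCM4 to 0.76 for ORC1A, with ORC2 at 0.72, RNR1 at 0.69, PCNA2 at 0.58, TSO2 at 0.49, CDT1A at 0.48, MCM2 at 0.44 and CDC45 at 0.42. In the covariate fit 3 of the 11 calls were kept, and without MUTEPPP#3 replicate 2, 4 were. Of the 18, 4 were above the MUTEv5 mean at the threshold, ORC6 by 0.77 (adjusted p = 0.00623). Of 20 mitosis genes 3 rose (CYCB1;4 0.35 with adjusted p = 0.0477, CYCB2;1 0.41 with adjusted p = 0.0426 and CDKB2;2 0.39 with adjusted p = 0.0274), 1 fell (TES, a kinesin of cytokinesis, -0.41 with adjusted p = 0.0202) and 16 did not pass. All 4 mitosis calls were lost in the covariate fit, without MUTE replicate 1 or 3 and without MUTEPPP#3 replicate 2. The share of mitosis genes called was 20%, below the 24.7% of all genes tested.

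Larger families, grouped by the product named in the annotation after their values were seen, moved by small amounts in many members. Their counts over MUTE stand beside 11.4% higher and 13.4% lower among all genes tested. Their counts against the MUTEv5 mean stand beside 3216 of all 22624 genes tested. Of 324 ribosomal protein genes without a named organelle, 225 rose and 2 fell, with a median log2 fold change of 0.45. In the covariate fit 231 were higher, and without MUTEPPP#3 replicate 2 the count was 147. The ribosomal medians over MUTE were 0.285 in MUTEv5#2 and 0.295 in MUTEv5#5, and 54 of the 324 differed from the MUTEv5 mean. Of 260 genes for pentatricopeptide repeat proteins, which process organelle RNA, 120 rose and 12 fell (median 0.54). The covariate fit called 29 of these higher, and without MUTEPPP#3 replicate 2 the count was 73. Medians of this family in MUTEv5#2 and MUTEv5#5 were 0.160 and 0.168, and 88 of the 260 differed from the MUTEv5 mean. PPR336, a member found in the mitochondrial ribosome, rose from 21.3, 20.3 and 20.16 CPM to 29.8, 33.2 and 33.1 CPM (log2 change 0.64 ± 0.0791 SE, adjusted p = 8.93e-04). Its highest MUTE library was below its lowest MUTEPPP#3 library.

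Of 41 histone genes 23 rose and 18 did not pass (median 0.46), and the covariate fit called 6 higher and 1 lower. Without MUTEPPP#3 replicate 2, 12 histone genes were called higher. Histone medians were 0.0786 in MUTEv5#2 and 0.187 in MUTEv5#5. H2AXA, a histone variant that marks DNA breaks, rose from 53.6, 60.3 and 58.8 CPM to 109, 140.1 and 101 CPM (log2 change 1.02 ± 0.129 SE, adjusted p = 9.46e-04), without overlap. Of 20 chaperonin subunit genes 10 rose and 1 fell (median 0.32), and of 14 genes for mitochondrial import translocases 8 rose and 1 fell (median 0.49). The covariate fit called 5 chaperonin and 5 translocase genes higher, and the fit without MUTEPPP#3 replicate 2 also called 5 and 5. In MUTEv5#2 and MUTEv5#5 the medians were 0.262 and 0.110 for chaperonin subunits and 0.196 and 0.131 for import translocases. TOM40, the channel of the outer membrane, rose from 60.8, 53.7 and 50.6 CPM to 67.9, 82.9 and 83.2 CPM (log2 change 0.50 ± 0.105 SE, adjusted p = 0.00750). Some members of these families are paralogs, and the treatment of reads that match several genes is not given.

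In other families falls were the more frequent. Of 9 BEL1-like homeodomain genes, partners of KNOX factors in the shoot, 6 fell and 3 did not pass (median -0.57), with the same count in the covariate fit. Scaled by library totals alone 3 were called lower, and without MUTEPPP#3 replicate 2 the count was 4. BEL10 fell from 41.9, 33.0 and 29.8 CPM to 17.3, 19.5 and 18.7 CPM (log2 change -0.92 ± 0.134 SE, adjusted p = 0.00169), and no library overlapped. Of 175 cytochrome P450 genes 40 fell and 8 rose (median -0.24), and of 129 NBS-LRR resistance genes 32 fell and 3 rose (median -0.21). In MUTEv5#2 and MUTEv5#5 the medians were -0.347 and -0.205 for BEL1-like, -0.151 and -0.0751 for P450 and -0.232 and -0.216 for NBS-LRR genes. Against the MUTEv5 mean 3 BEL1-like, 31 P450 and 12 NBS-LRR genes differed, beside 3216 of all 22624 genes tested. Scaled by library totals alone, the P450 genes split into 31 lower and 19 higher and the NBS-LRR genes into 20 lower and 6 higher. Of 58 WRKY factor genes 5 rose and 5 fell, 8.62% each, below the 11.4% and 13.4% of all genes tested.

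**Figure D4:**
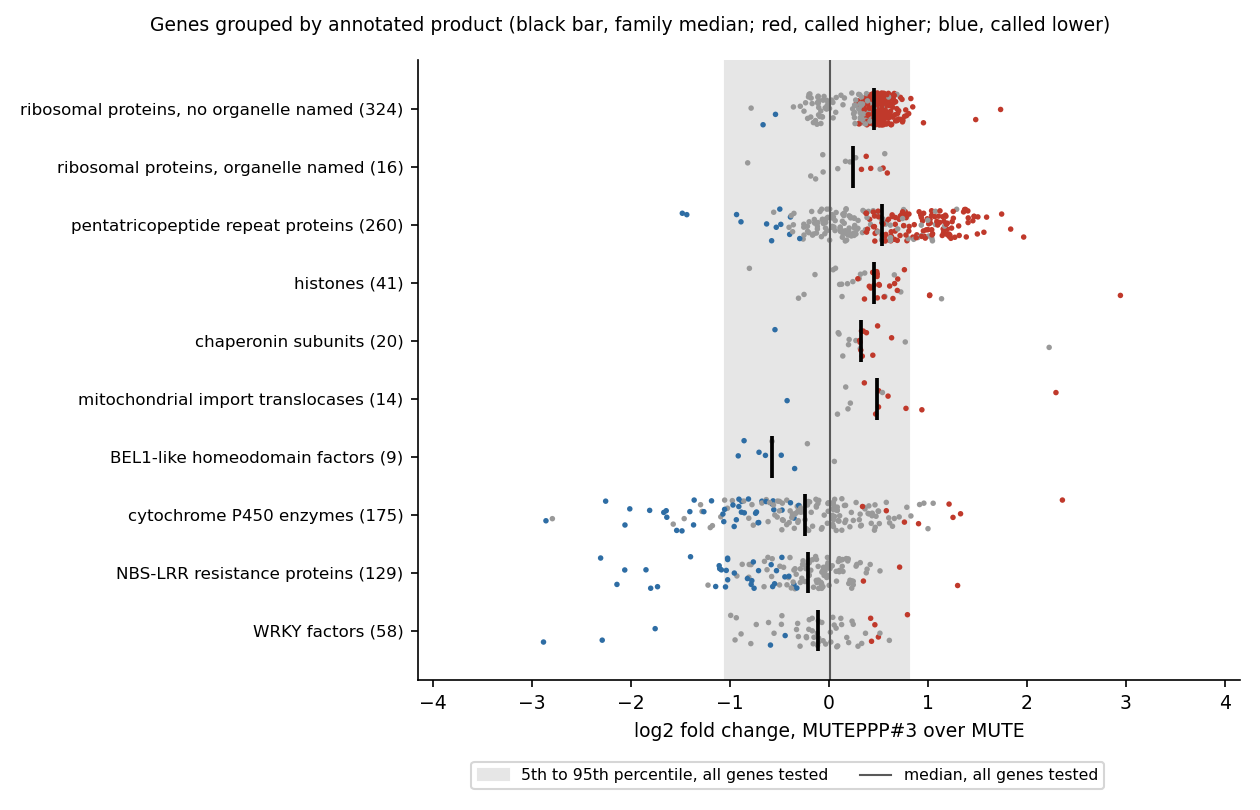
Log2 fold change, MUTEPPP#3 over MUTE (horizontal axis), of every gene tested in 10 families named by annotated product (vertical axis, number of genes in brackets); red and blue points are genes called higher and lower, black bars are family medians and the grey band holds 90% of all genes tested. Ribosomal protein genes form a narrow cloud around a median of 0.45, and pentatricopeptide repeat genes reach further to the right with a median of 0.54.

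Markers of other cell types in the seedling were examined beside these groups. Among all genes tested 11.4% were called higher and 13.4% lower. Of 22 photosynthesis genes 5 fell and 17 did not pass (median -0.34), and their summed level was 149014 to 156896 CPM in MUTE and 111599 to 133203 CPM in MUTEPPP#3. RCA, the activase of Rubisco, fell from 12996, 11763 and 11640.4 CPM to 9774, 7575 and 5872 CPM (-0.65 with adjusted p = 0.0169), and GAPA and LHCB2.1 had log2 fold changes of -0.73 (adjusted p = 0.0119) and -0.72 (adjusted p = 0.0190). Without MUTEPPP#3 replicate 2 the values were -0.63 (adjusted p = 0.0609) for RCA and -0.67 (adjusted p = 0.0528) for GAPA, and there, as in the covariate fit, all 5 calls were lost. The photosynthesis list medians over MUTE were -0.35 in MUTEv5#2 and -0.16 in MUTEv5#5, and none of the 22 genes differed from the MUTEv5 mean. The small subunit genes RBCS1B and RBCS3B, which are near copies of each other, were at -0.42 (adjusted p = 0.0465) and -0.46 (adjusted p = 0.0224), and RBCS1B was at -0.22 without MUTE replicate 1. Of 11 xylem genes 4 fell and 7 did not pass (median -0.45), with a summed level of 184 to 186 CPM in MUTE and 116 to 154 CPM in MUTEPPP#3. IRX5, a cellulose synthase of secondary walls, fell from 31.3, 28.1 and 28.0 CPM to 18.17, 17.8 and 17.9 CPM (log2 change -0.70 ± 0.0743 SE, adjusted p = 5.51e-04), and IRX1, IRX3 and the protease gene XCP2 were at -0.45 (adjusted p = 0.00175), -0.32 (adjusted p = 0.0223) and -0.54 (adjusted p = 0.0119). The calls on IRX1 and IRX5 were kept in the covariate fit and in all 12 leave-one-out fits, and those on IRX3 and XCP2 were lost in the covariate fit and without MUTEPPP#3 replicate 2. The part of these cell types in the other results was not tested.

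Of 12 root hair genes 2 rose (EXPA18 0.60 with adjusted p = 0.0233 and RHS2 0.42 with adjusted p = 0.0498) and 10 did not pass, and of 12 endodermis genes 2 fell (SCR -0.52 with adjusted p = 0.00534 and CASP5 -0.75 with adjusted p = 0.0342) and 10 did not pass. Of 15 trichome genes 2 fell, TTG2 (-0.44 with adjusted p = 0.0477) and TRY, a small repressor of trichome fate, which went from 1.67, 1.31 and 1.39 CPM to 0.429, 0.232 and 0.258 CPM (log2 change -2.24 ± 0.322 SE, adjusted p = 0.00161). TRY was separate between the lines. The covariate fit kept the calls on SCR and TRY and lost those on CASP5, TTG2, EXPA18 and RHS2. Of 20 genes of pavement epidermis and cuticle 1 rose (HDG1, a homeodomain factor of the epidermis, 0.58 with adjusted p = 0.00659), 1 fell (CER3, a wax synthesis enzyme, -0.78 with adjusted p = 0.00644) and 18 did not pass, and both calls were lost in the covariate fit. The share called was 16.7% for root hair and for endodermis genes, 13.3% for trichome genes and 10% for pavement epidermis and cuticle genes. These shares lay below the 24.7% of all genes tested. Of 16 seed storage genes only 3 were abundant enough to test, with a smallest adjusted p of 0.417 for OLEO4, which stood at 0.275, 0.265 and 0.199 CPM in MUTE and 0.199, 0.247 and 0.123 CPM in MUTEPPP#3.

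**Figure D5:**
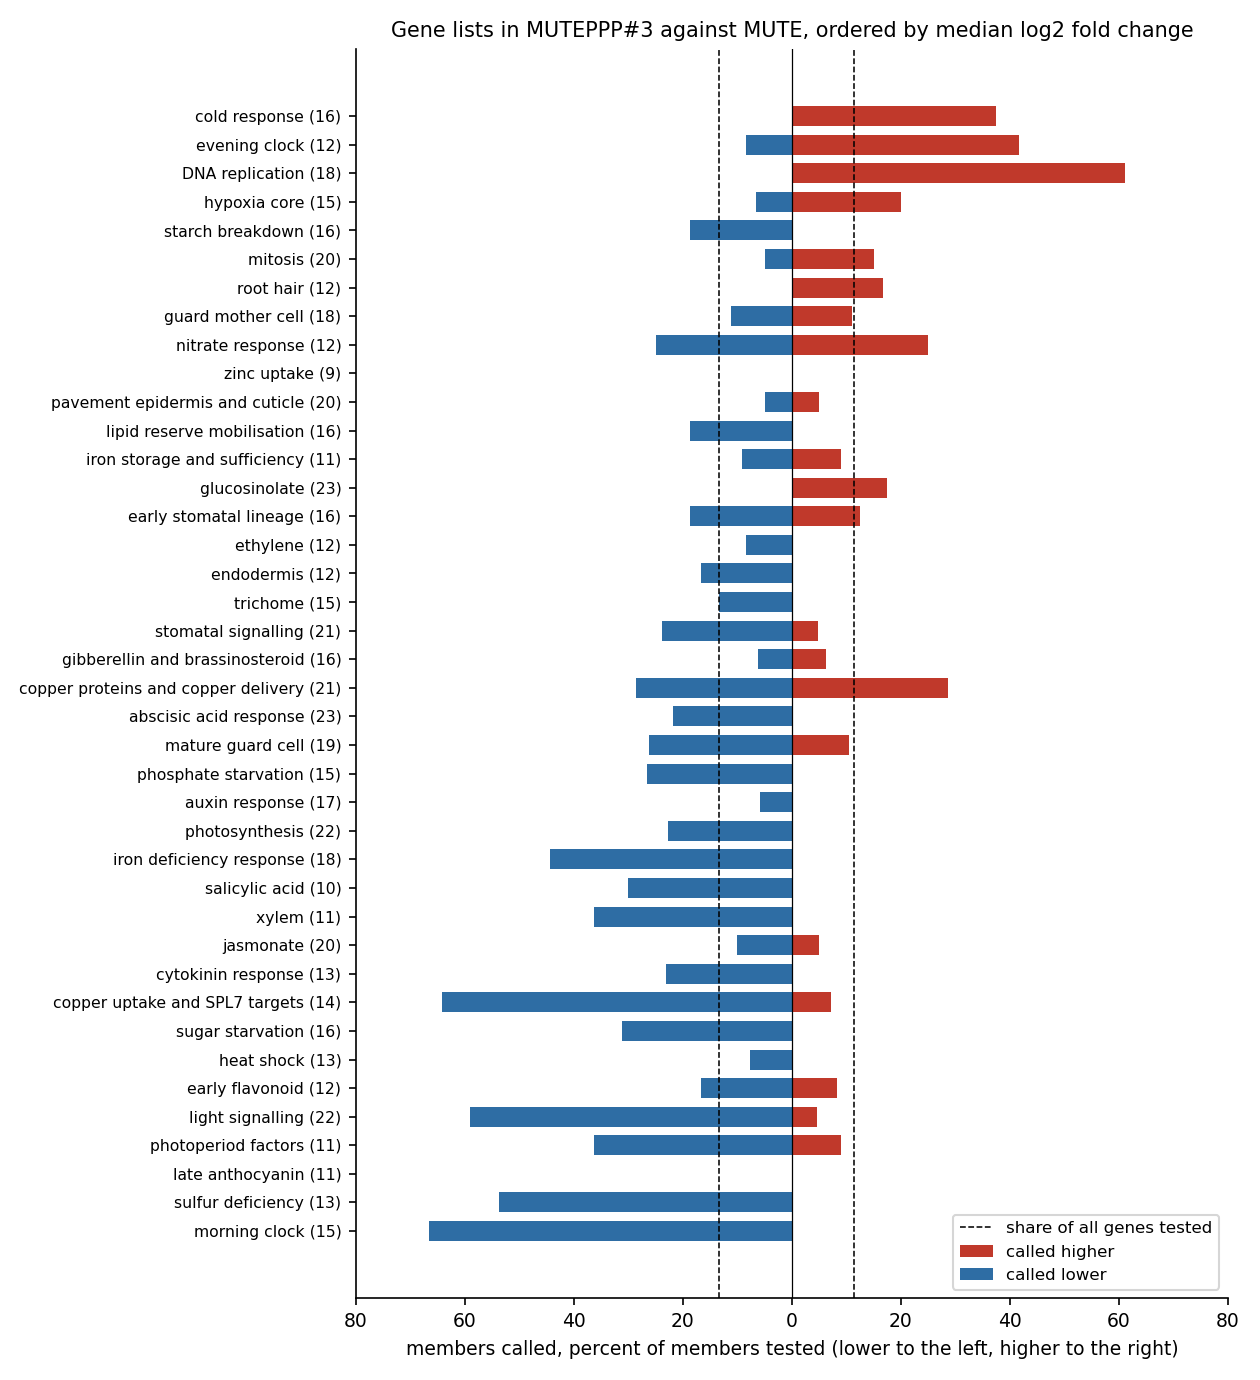
Percent of tested members called higher (red, to the right) and lower (blue, to the left) in MUTEPPP#3 against MUTE (horizontal axis) for 40 gene lists (vertical axis, members tested in brackets), ordered by median log2 fold change; dashed lines mark the shares over all genes tested, 11.4% higher and 13.4% lower. Morning clock, copper uptake, light signalling and sulfur deficiency genes reach furthest to the left and DNA replication genes furthest to the right.

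The genes with the largest changes included several without a well-known role. Among called genes with a mean of 1 CPM or more and no overlap between the lines, the 12 largest rises were, beyond COR27, FKF1, COR28 and COR78, those of the receptor-like protein gene RLP33 (log2 fold change 4.24 with adjusted p = 0.00152), ERF53 (3.83 with adjusted p = 0.0182), AT2G17850 (4.14 with adjusted p = 0.0134), AT1G17665 (4.04 with adjusted p = 0.00519), AT1G04463 (3.72 with adjusted p = 0.00384), AT4G28140 (3.71 with adjusted p = 0.0169), AT4G04223 (3.68 with adjusted p = 7.56e-06) and AT4G34950 (3.28 with adjusted p = 0.00330). AT4G04223 was measured at 1.198, 1.19 and 1.50 CPM in MUTE and 18.6, 16.3 and 14.8 CPM in MUTEPPP#3, and it shares 99.3% identity over 550 bases with AT3G56210. AT1G04463 overlaps AT1G06450 on the opposite strand. RLP33 was measured at 0.282, 0.537 and 0.425 CPM and 4.80, 15.2 and 3.46 CPM. Separation between the lines was a condition for entering this list, and RLP33 spread widely among the MUTEPPP#3 libraries. Without MUTEPPP#3 replicate 2, ERF53 was at 2.32 (adjusted p = 0.0804) and AT4G28140 at 2.06 (adjusted p = 0.0752). By limma-voom COR27, COR28, AT1G17665 (adjusted p = 0.0743), ERF53 (adjusted p = 0.0735) and AT4G28140 (adjusted p = 0.0523) were not called. In a fit of the compared lines only, FKF1, COR28, ERF53 and AT4G28140 were not called, with adjusted p from 0.0506 for ERF53 to 0.0601 for AT4G28140. AT4G04223 was also called higher in MUTEv5#2 (2.58 with adjusted p = 2.06e-04) and MUTEv5#5 (2.66 with adjusted p = 1.06e-04). AT2G17850 was called higher in MUTEv5#2 (4.77 with adjusted p = 0.0291). The rest of the 12 rises were not called in a MUTEv5 line.

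Under the same limits the deepest falls after COPT2 and FRO4 were those of AT2G15020 (-5.53 with adjusted p = 0.00562), the heat-stress factor gene HSFA6A (-5.14 with adjusted p = 8.18e-04), AT5G35777 (-4.63 with adjusted p = 4.34e-04), COL2, IRT1, AT2G27420 (-4.27 with adjusted p = 0.00125), AT1G27565 (-4.16 with adjusted p = 2.06e-04), AT3G28270 (-4.00 with adjusted p = 0.00982), the retroelement RE2 (-3.84 with adjusted p = 3.57e-04) and the zinc finger gene ZAT7 (-3.79 with adjusted p = 0.0436), as log2 fold changes. HSFA6A fell from 4.58, 1.74 and 1.06 CPM to 0.0640, 0.0580 and 0.0839 CPM. AT3G28270 fell from 66.1, 6.10 and 5.43 CPM to 2.06, 1.52 and 1.28 CPM, and MUTE replicate 1 stood far above the rest; without it the log2 value was -1.82. AT1G27565 and RE2 were also low in the MUTEv5 lines, with log2 changes from MUTE of -4.13 and -3.70 for AT1G27565 and -4.86 and -4.41 for RE2, so for these genes the MUTE line stood apart from the other 3 lines. IRT1 was also called lower in MUTEv5#5 (-7.13 with adjusted p = 0.0388). AT5G35777 (-3.35 with adjusted p = 0.00509), AT2G27420 (-2.08 with adjusted p = 0.0460) and HSFA6A (-1.99 with adjusted p = 0.0493) were called lower in MUTEv5#2. The rest of the 12 falls were not called in a MUTEv5 line. AT1G27565 has a near copy, AT1G52905 (98.3% identity over 515 bases). The call on IRT1 was lost without MUTEPPP#3 replicate 2 or 3, and that on ZAT7 was kept in 5 of 12 leave-one-out fits (log2 -4.29 to -2.98). By limma-voom ZAT7 (adjusted p = 0.167) and AT3G28270 (adjusted p = 0.0593) were not called. AT3G28270 was also not called in a fit of the compared lines only (adjusted p = 0.0529).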

How the data were processed

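The deposited table holds read counts per gene for all 12 libraries, per the file headers, and the lowest value in every library is 1, so a gene with no read cannot be told from a gene with 1. DESeq2, StringTie 2.1.3b, HISAT2 2.1.0, Trimmomatic 0.38, Bowtie2 2.3.4.1 and FastQC are listed with the TAIR10 build, per the submitters' processing notes. Libraries were made with a stranded mRNA kit, per the labels' protocols, while the sources used here do not name the counting tool or its strand setting. Of 23098 entries, 27 named no gene (at most 5.96e-04% of a library's counts) and were left out. Genes were matched to RefSeq names and loci by the identifiers in the table.

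Counts were tested with edgeR 4.0.16 in R 4.3.3 (TMM scaling, filterByExpr, quasi-likelihood F test), in 1 fit of 4 line means over all 12 libraries, with Benjamini-Hochberg adjustment over 22624 genes and a threshold of 0.05. Low counts removed 447 genes, and the biological coefficient of variation common to all genes was 0.215. On simulated counts for this comparison, run over 22621 genes, 80 of 100 genes changed by 1 on the log2 scale and 100 of 100 changed by 2 were recovered, with 11 false calls. The changed genes had at least 1 CPM, and the simulated libraries varied independently with no clock difference between lines. These figures therefore do not measure false calls in the real libraries. Totals ranged from 117868477 to 152600239 counts. CPM values are TMM-scaled. A standard error is the log2 fold change divided by the square root of F.

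The genes named are MUTE and 4 further stomatal regulators, the 12 largest rises and 12 largest falls among called genes of at least 1 CPM without overlap, the called members of 41 gene lists (or the up to 4 with the smallest p where a list had none), and the 5 genes most like COPT2. The comparison, the lists and the genes were chosen with earlier results of these data known. PPR336, H2AXA, TOM40, BEL10, MIR398b and the product families were chosen after their values were seen. Near copies are transcripts of another gene with at least 95% identity over at least 100 bases (BLAST 2.17.0). Alternatives were DESeq2 1.42.0, limma-voom 3.58.1, other scalings and filters, a fit of the compared lines only, a replicate block, the clock index or the ribosomal and organelle share as a covariate, and leaving out each library.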

Additional observations from a re-analysis of the deposited data

Results flagged for a closer look

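In 4 stomatal genes the change from MUTE pointed one way in MUTEPPP#3 and the other way in both MUTEv5 lines, the opposite change was itself called in at least 1 MUTEv5 line, and the difference from the MUTEv5 mean itself had an adjusted p under 0.05 (edgeR). SCRM, the bHLH partner of MUTE, was at a log2 fold change of -0.24 in MUTEPPP#3 and at 0.29 and 0.61 in MUTEv5#2 and MUTEv5#5, a difference of -0.69 (adjusted p = 9.14e-04). ERL1, a receptor kinase gene, was at -0.50 against 0.50 and 0.73, a difference of -1.12 (adjusted p = 0.00163). PME6, the guard cell pectin methylesterase gene, was at 1.04 against -1.07 and -2.06, a difference of 2.60 (adjusted p = 4.40e-04). SLAC1, the anion channel gene, was at 0.51 against -0.59 and -1.44, a difference of 1.53 (adjusted p = 4.40e-04). The calls on these 4 genes in MUTEPPP#3 against MUTE were all lost in the clock-adjusted fit. Leave-one-out fits kept that call in 1 of 12 for SCRM, 7 for ERL1, 11 for PME6 and 7 for SLAC1. Over all genes tested 9 were called in MUTEPPP#3, differed from the MUTEv5 mean and had an opposite change called in at least 1 MUTEv5 line, 5 of them higher in MUTEPPP#3, and in 2 of the 9 the opposite change was called in both. By sign alone, without a call in a MUTEv5 line, 185 called genes that differed from the MUTEv5 mean moved against both MUTEv5 lines, 129 of them higher and 56 lower in MUTEPPP#3. The 3 lines share the MUTE control libraries.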

How the results depend on the processing

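The number of genes called (5594) lay between 5340 and 6921 with DESeq2, limma-voom, RLE scaling, library totals, other filters and a replicate block. Between the compared lines, the deviations of same-numbered libraries had r of 0.19, -0.04 and -0.06. Replicate 1 alone correlated best with its own number there, so the samples were not taken as paired. That check left out the MUTEv5 lines. By correlation, the closest library of another line shared the replicate number for every MUTE library, most MUTEv5 libraries and no MUTEPPP#3 library. Replicate 1 had the lowest clock index of its line throughout, from -5.83 for MUTE to -0.203 for MUTEPPP#3. Whether same-numbered libraries share a batch across all lines was not tested. The replicate block called 6194 genes (3766 against the MUTEv5 mean). A fit of the compared lines alone called 3226 (1320 higher, 1906 lower), library totals as the only scaling gave 4787 higher and 1862 lower, and the clock index as a covariate gave 1474 higher. Against the MUTEv5 mean 3216 genes were called, 906 with the clock index and 1258 with the ribosomal and organelle share as a covariate. An alternative chosen after seeing the data kept MUTE replicates 2 and 3 and MUTEPPP#3 replicate 1, the libraries nearest in clock index, and assumed the lone library to vary like the other groups. It called 600 genes, 115 higher and 485 lower, and 168 against the MUTEv5 mean. The causes of these shifts were not tested, apart from the fewer libraries. Leaving out 1 library gave 2947 to 5621 genes called, 1221 to 2713 higher, 1726 to 3049 lower, and 554 to 4081 against the MUTEv5 mean, the lowest without MUTEPPP#3 replicate 2 in each case. Of the 204 called genes named, leave-one-out fits kept the call in 2014 of 2448 cases, and the clock covariate kept 99. Signs turned only for TOC1 (-0.10 with the clock covariate, -0.19 in the alternative chosen later), HAI1 (0.0473) and HSP70 (0.0423, both with the clock covariate), and the cause was not tested. TOC1 is part of the clock index, so its clock-adjusted value is circular. At 117868477 counts or more per library, a gene near 1 count cannot be told from one with no read, and whether depth or the 3 libraries per line limit the other calls was not tested.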

Other observations

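Among genes of carbon and energy status, falls prevailed in the sugar starvation list in MUTEPPP#3, while the starch and lipid lists were mixed. Over all genes tested 24.7% were called, 11.4% higher and 13.4% lower. Of 16 sugar starvation genes 5 fell and 11 did not pass (median log2 fold change -0.70). TPS8, a class II trehalose phosphate synthase gene, fell from 108, 163 and 169 CPM to 28.0, 31.7 and 40.3 CPM (log2 change -2.14 ± 0.342 SE, adjusted p = 0.00251), and TPS9, TPS11, BZIP63 and DIN9 had log2 fold changes of -1.24, -1.81, -1.48 and -1.11. The lines were separate in all 5. All 5 calls were kept in the clock-adjusted fit and in all 12 leave-one-out fits. The sugar starvation medians over MUTE were -0.68 in MUTEv5#2 and -0.32 in MUTEv5#5, and 2 of the 5 called genes differed from the MUTEv5 mean. Of 16 genes in the starch breakdown list, which also holds the synthase gene GBSS1, 3 fell and 13 did not pass. The median was 0.26, 12 of the 16 lay above 0, and the share called was 18.8%. GBSS1, the granule-bound starch synthase, and BAM9, a regulatory beta-amylase, fell from 225, 71.7 and 69.8 CPM to 32.3, 19.6 and 9.57 CPM (log2 change -2.58 ± 0.538 SE, adjusted p = 0.00750) and from 116, 39.0 and 46.7 CPM to 9.09, 6.25 and 7.09 CPM (log2 change -3.17 ± 0.395 SE, adjusted p = 8.93e-04), and BAM1 was at -1.01 (adjusted p = 0.00914). In the clock-adjusted fit 10 of the 16 were called lower, GBSS1 and BAM9 among them, and the list median turned to -0.90; the cause was not tested. Of 16 genes of lipid reserve mobilisation 3 fell, PMDH2 (-0.87 with adjusted p = 0.00182), SDP1, a lipase of oil bodies (-0.85 with adjusted p = 0.00461), and ACX2 (-0.57 with adjusted p = 0.0117). The lipid list had 8 genes above 0 and 8 below, with a median of 0.01, and its share called was 18.8%, below the 24.7% of all genes tested. The clock-adjusted fit kept all 3 falls of the lipid list, and the call on ACX2 was lost without MUTEPPP#3 replicate 2.

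Of 15 hypoxia genes 3 rose, among them ADH1, alcohol dehydrogenase, from 6.22, 3.58 and 4.06 CPM to 10.02, 11.3 and 12.8 CPM (log2 change 1.3 ± 0.232 SE, adjusted p = 0.00391), with PDC1 at 0.95 (adjusted p = 0.0158) and the haemoglobin gene HB1 at 1.76 (adjusted p = 0.0207), and 1 fell (RBOHD, -1.13 with adjusted p = 0.0172). Of these 4 calls 3 were kept in the clock-adjusted fit, and the call on ADH1 was kept in all 12 leave-one-out fits. The hypoxia list median over MUTE was 0.38 in MUTEPPP#3, 1.16 in MUTEv5#2 and 0.47 in MUTEv5#5. In MUTEv5#2 6 of the 15 were called, and none of the 4 genes called in MUTEPPP#3 differed from the MUTEv5 mean. Of 12 nitrate response genes 3 rose (NIR1 0.89 with adjusted p = 0.0169, UPM1 1.28 with adjusted p = 0.0275, G6PD3 1.49 with adjusted p = 0.0169) and 3 fell (HHO2 -1.07 with adjusted p = 0.0447, LBD37 -0.48 with adjusted p = 0.0132, LBD38 -0.39 with adjusted p = 0.0465). All 6 nitrate calls were lost without MUTEPPP#3 replicate 2, LBD38 was at -0.22 without MUTE replicate 2, and in the clock-adjusted fit the 3 falls were kept, the 3 rises were lost and the list median went from 0.11 to -0.40. Of 15 phosphate starvation genes 4 fell (MGD2 -1.29, PHO2 -0.66, PHO1 -0.54 and GDPD1 -0.49). Without MUTE replicate 1 the values were -0.67 for MGD2 and -0.36 for PHO1, both no longer called, and -0.42 for PHO2, and the clock-adjusted fit kept GDPD1 only. Of 9 zinc uptake genes the smallest adjusted p was 0.161, for ZIP5. Of 23 abscisic acid response genes 5 fell (RD29B -2.33, HAI1 -1.53, ABF3 -1.18, HAB1 -0.97 and PYL1 -0.53), and all 5 calls were lost in the clock-adjusted fit. Without MUTE replicate 1 the call on ABF3 alone was kept, and RD29B, HAI1, HAB1 and PYL1 were at -1.53, -0.78, -0.52 and -0.30. Of 13 heat shock genes 1 fell (HSP70 -2.23 with adjusted p = 0.0472), and without MUTE replicate 1, which held the most of its transcript, the value was -1.05 and the call was lost. Of 23 glucosinolate genes 4 rose (MAM3 0.99, CYP79F2 0.91, BCAT4 0.70 and MYB34 0.34). All 4 calls were lost in the clock-adjusted fit, MAM3 alone kept its call in all 12 leave-one-out fits, and MYB34 was at 0.20 without MUTEPPP#3 replicate 2. Of 12 early flavonoid genes MYB111, a flavonol regulator, rose from 1.61, 1.45 and 1.47 CPM to 15.2, 9.86 and 4.06 CPM (log2 change 2.69 ± 0.570 SE, adjusted p = 0.00801), while TT7 and UGT78D2 were at -0.81 (adjusted p = 0.0331) and -0.98 (adjusted p = 0.0274). Without MUTE replicate 1 TT7 and UGT78D2 were at -0.37 and -0.58 and were not called, and in the clock-adjusted fit both calls were lost and the list median turned from -0.79 to 0.71, while the call on MYB111 was kept in all these fits. Of 11 late anthocyanin genes the smallest adjusted p was 0.0501, for TT19.

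Of 20 jasmonate genes JAZ9, a repressor of jasmonate responses, fell from 46.6, 54.5 and 58.8 CPM to 10.2, 11.9 and 9.48 CPM (log2 change -2.34 ± 0.388 SE, adjusted p = 0.00289), LOX4 was at -2.36 (adjusted p = 0.0469) and AOC4 rose (0.37 with adjusted p = 0.0358). JAZ9 differed from the MUTEv5 mean by -1.72 (adjusted p = 0.0120). The call on AOC4 was lost in the clock-adjusted fit, and that on LOX4 was kept in 4 of 12 leave-one-out fits. Of 10 salicylic acid genes 3 fell, WRKY70 (-1.76 with adjusted p = 0.00603), the synthesis gene ICS1 (-0.86 with adjusted p = 0.00310) and EDS1 (-0.59 with adjusted p = 0.00606), with all 3 kept in the clock-adjusted and leave-one-out fits. Of 13 cytokinin response genes 3 fell, ARR5 (-1.70 with adjusted p = 0.0456), ARR9 (-1.2 with adjusted p = 7.93e-04) and ARR8 (-0.52 with adjusted p = 0.0147), the last with stretches of near-identical sequence in other genes. The call on ARR8 was lost in the clock-adjusted fit, and ARR9 alone was kept in all 12 leave-one-out fits. Of 17 auxin response genes 1 fell (IAA14 -0.83 with adjusted p = 0.00749), of 12 ethylene genes 1 fell (ACO4 -0.39 with adjusted p = 0.0458), and of 16 genes of gibberellin and brassinosteroid 1 rose (GASA4 0.79 with adjusted p = 0.00224) and 1 fell (ROT3 -0.63 with adjusted p = 0.00606). The calls on GASA4 and ROT3 were kept in the clock-adjusted fit, and those on IAA14 and ACO4 were lost.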
